A study of Mus musculus with 6 samples.

Results

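The genes examined here are 10 sensors of RNA and DNA with their adaptor and brakes, namely Ddx58 (RIG-I), Ifih1 (MDA5), Dhx58 (LGP2), Mavs, Eif2ak2 (PKR), Adar (ADAR1), Zbp1, Tlr3, Tlr7 and Cgas. They were chosen by name as sensors linked to double-stranded RNA stress after loss of the histone demethylase LSD1, and all 10 were found among the 16281 genes of the count table. RNA was compared between CD8+ T cells grown with vehicle (Veh, n = 3) and with 0.5 μM GSK2879552 (GSK, n = 3), an irreversible inhibitor of LSD1. All 6 cultures came from the spleens of C57BL/6 OT1 mice, genotype Tg(TcraTcrb)1100Mjb, whose CD8+ T cells recognise an ovalbumin peptide through a transgenic receptor, and the age of these mice is not given in the sources used here. Vehicle or GSK was present through 48 h of activation with anti-CD3 and anti-CD28 and 3 days of expansion in IL-2. The study's text speaks of cells from 3 separate mice and, for the groups, of 3 mice each, and the sources used here do not say whether a Veh and a GSK culture of the same replicate number came from the same mouse. The tests treat the 6 samples as unpaired, and p-values measure the spread between these samples only. The study's methods do not say whether its own test of the RNA counts was paired.

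Cells carry sensors that recognise nucleic acids out of place or of unusual form. RIG-I and MDA5 are cytosolic helicases that bind double-stranded RNA and signal through MAVS on mitochondria, TLR3 and TLR7 read RNA inside endosomes, and cGAS reads DNA in the cytosol, all of which can lead to type I interferon. Many of these sensors are themselves interferon-stimulated genes. In tumour cells, loss of LSD1 is known to raise transcripts of endogenous retroviruses, which can form double-stranded RNA and engage TLR3 and MDA5. Retroviral transcripts were not analysed here.

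The counts summed to between 18288447 and 19846720 per sample. Levels are given in CPM, the count relative to the TMM-scaled total of its sample, as mean ± SD. Differences are log2 fold changes of GSK over Veh from the quasi-likelihood test of edgeR, with p-values adjusted by Benjamini-Hochberg over the 11698 genes that had enough counts. A gene was called at an adjusted p under 0.05. The labelled cell type was borne out by its markers, with all 8 CD8 T cell markers detected at a summed level of 4310 to 4480 CPM per sample. Kdm1a, which encodes LSD1, the inhibitor's target, averaged 92.8 ± 5.45 CPM (SD, n = 3) in Veh and 87.1 ± 3.54 CPM in GSK (log2 fold change -0.09, adjusted p = 0.22).

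Zbp1 and Tlr7 rose in GSK, Tlr3 had more counts in GSK but too few for the test, and none of the helicases RIG-I, MDA5 and LGP2 or their adaptor Mavs was called. Tlr7 was 2.06-fold and Zbp1 1.57-fold higher. Of the 10 members, 9 had enough counts for the test, and of these 2 were called higher, where 16.6% of all genes tested were, and 0 were called lower, where 15.5% were (32.1% in either direction). At an unadjusted p under 0.05, edgeR likewise gave 0 lower members and 3 higher, and DESeq2 gave 0 lower and 4 higher. The share of all genes at that threshold was not worked out, so these counts have nothing to be read against. After adjustment, DESeq2 called 0 lower. Both members called higher were also past a fold change of 1.5, as were 2.22% of all genes tested, and 4.09% were lower by that fold. The median log2 fold change of the 9 members was 0.07, beside -0.0039 over all genes tested.

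**Figure D1:**
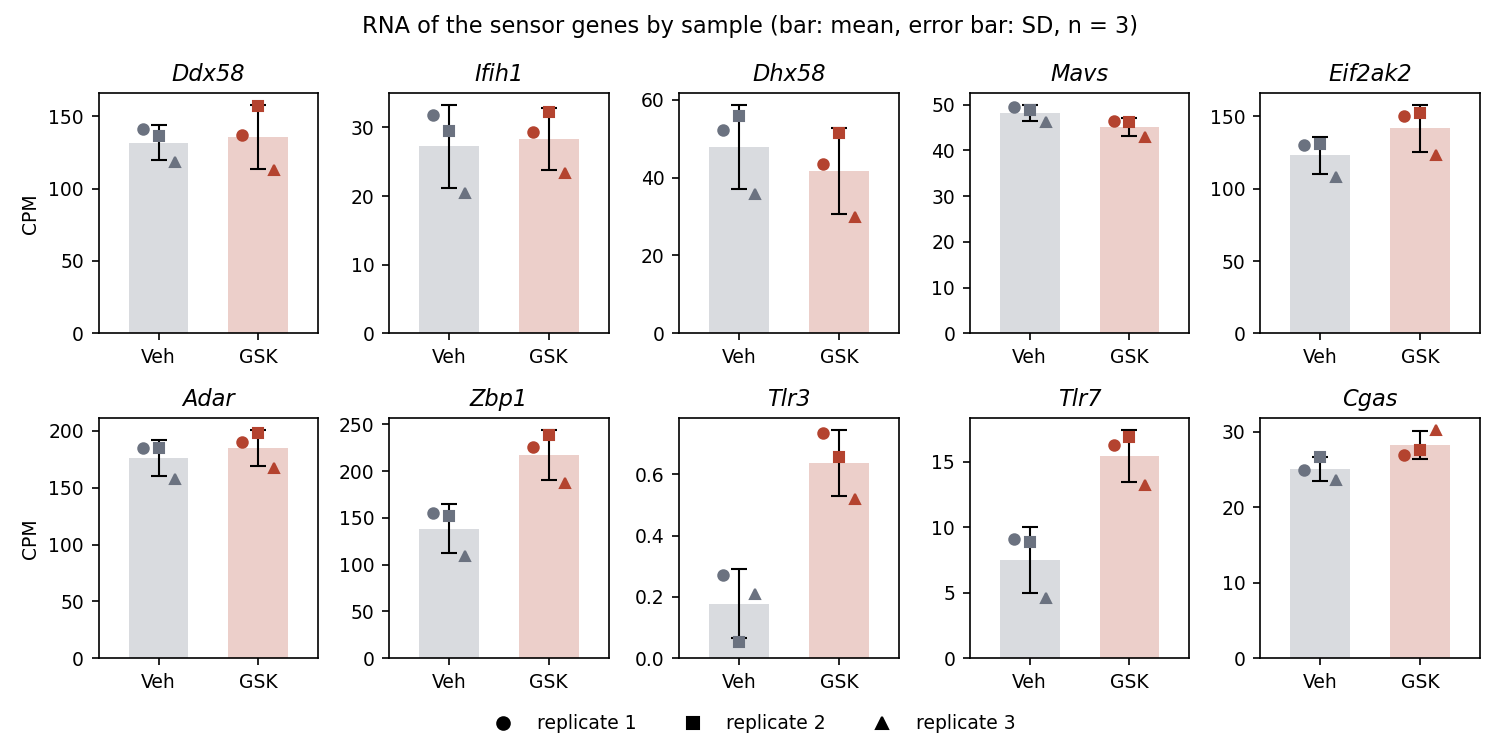
RNA of the 10 sensor genes in CPM (y axes, each from 0) in the 3 Veh and 3 GSK samples, with bars for means, error bars for the SD and a symbol for each replicate number. Zbp1, Tlr3, Tlr7 and Cgas have every GSK sample above every Veh sample, and in 8 genes replicate 3 is the lowest sample of both groups.

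ZBP1 recognises nucleic acids in the left-handed Z form through its Zα domains and can start cell death through RIPK3. Zbp1 (Entrez gene 58203) spans 173206612 to 173218923 on chromosome 2 (GRCm38). It was at 155, 152 and 109 CPM in Veh replicates 1 to 3 and at 226, 239 and 187 CPM in GSK replicates 1 to 3. The lowest GSK sample therefore lay above the highest Veh sample, and the means were 139 ± 25.6 CPM (SD, n = 3) in Veh and 217 ± 26.6 CPM in GSK. This was a log2 fold change of 0.65 (standard error 0.17, 95% interval 0.20 to 1.10, adjusted p = 0.045). The call lay near the threshold and ended, with adjusted p-values from 0.060 to 0.14, without Veh replicate 1 or 2 or without GSK replicate 1, 2 or 3, and with 0.13 and 0.21 without both samples of replicate 1 or of replicate 2. With genes of low counts kept in the test, it ended too (adjusted p = 0.084), while the log2 fold change stayed between 0.50 and 0.74 under all 15 alternatives. The call held under the other 7 of these. Among them were DESeq2 (adjusted p = 0.0031) and edgeR without both samples of replicate 3 (adjusted p = 1.9e-05).

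TLR7 binds single-stranded RNA in endosomes and signals through MyD88. Tlr7 (Entrez gene 170743) spans 167304929 to 167330558 on chromosome X. It was at 9.08, 8.85 and 4.62 CPM in the Veh samples, from 167, 165 and 88 counts, and at 16.3, 16.9 and 13.2 CPM in the GSK samples, from 311, 333 and 253 counts. The groups did not overlap. The log2 fold change was 1.04 (standard error 0.23, 95% interval 0.51 to 1.57, adjusted p = 0.010). Without both samples of replicate 1, or both of replicate 2, the adjusted p was 0.050 and 0.060, and the call ended, with 2 samples left in each group.

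Because Tlr7 is known for its role in B cells, dendritic cells and macrophages, markers of these cells are given beside it. All 8 B cell markers were in the table, with a summed level of 6.36 to 8.21 CPM in Veh and 8.13 to 9.67 CPM in GSK. Most of that was Cd79b, which averaged 6.51 ± 1.02 CPM in Veh and 4.90 ± 0.24 CPM in GSK (adjusted p = 0.070), and Cd22, which rose from 0.409 ± 0.186 to 2.60 ± 0.279 CPM (log2 fold change 2.65, adjusted p = 1.5e-04). The defining marker Ms4a1 had 0, 2 and 2 counts in Veh and 4, 6 and 8 in GSK. Of 8 macrophage and monocyte markers, all 8 in the table, the summed level was 3.36 to 5.17 CPM in Veh and 1.62 to 3.09 CPM in GSK, with Adgre1 at 0 counts in every GSK sample. Of 8 dendritic cell markers, 5 were in the table, at 3.27 to 4.84 CPM in Veh and 1.77 to 2.68 CPM in GSK. The largest part was Itgax, which fell from 3.39 ± 0.972 to 1.31 ± 0.144 CPM (log2 fold change -1.37, adjusted p = 0.0023). Clec9a had 0 counts in every Veh sample and 0, 2 and 0 in GSK. These sums thus rest mostly on 1 gene each. The part of other cells in the Tlr7 difference was not tested. In bulk RNA, a change in the number of cells of a type and a change in RNA per cell cannot be told apart.

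TLR3 binds double-stranded RNA in endosomes and signals through TRIF. Tlr3 (Entrez gene 142980, chromosome 8 from 45395665 to 45411080) had 5, 1 and 4 counts in Veh and 14, 13 and 10 counts in GSK, too few to enter the test. Every GSK sample had more counts than every Veh sample. Summed over the samples, 37 counts in GSK against 10 in Veh gave a ratio of 3.58 after scaling (95% interval 1.74 to 8.07, exact binomial, counting error only). Exons of the antisense gene Gm45542 cover 7.32% of its exon length, so its counts are uncertain. With genes of low counts kept in the test, Tlr3 was called, at a log2 fold change of 1.80 (adjusted p = 0.037). Some fits with 1 library left out also held Tlr3. It passed their filter only through the GSK samples, where its counts are high, so those fits add no support.

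**Figure D2:**
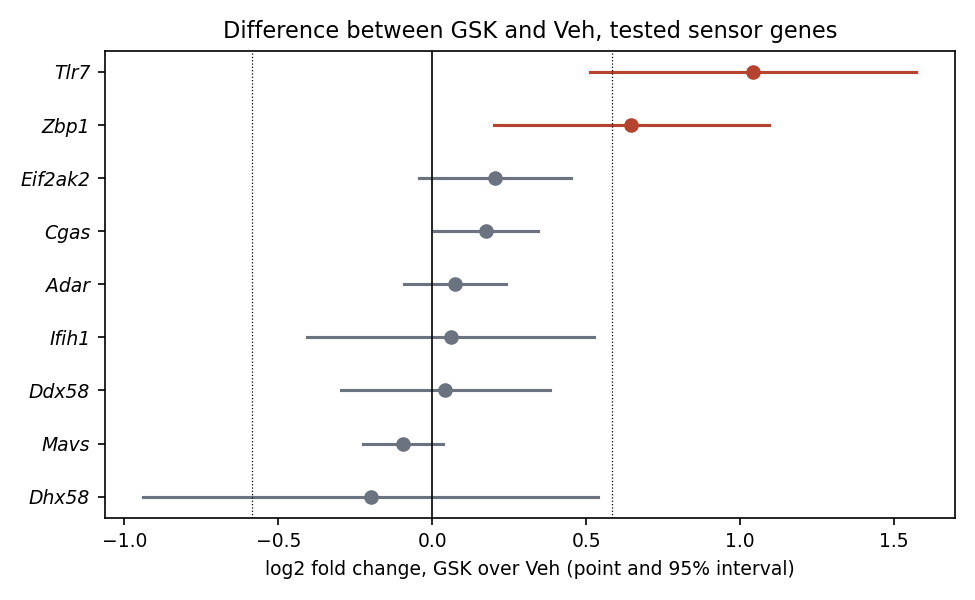
Log2 fold change of GSK over Veh (x axis) for the 9 members tested, with points for estimates and lines for 95% intervals; red marks an adjusted p under 0.05 and dotted lines a fold change of 1.5 in either direction. Tlr7 and Zbp1 are the members in red, and the interval of Dhx58 is the widest, from -0.94 to 0.54.

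The RIG-I-like helicases did not pass the test. Ddx58 (RIG-I, chromosome 4 from 40203773 to 40239828), which binds the ends of short double-stranded RNA bearing a 5′ triphosphate, was at 141, 136 and 118 CPM in Veh and 137, 157 and 113 CPM in GSK. The groups overlapped. Its log2 fold change was 0.04 (standard error 0.14, 95% interval -0.30 to 0.38, adjusted p = 0.84), so a change of 1.5-fold lies outside the interval.

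Ifih1 (MDA5, chromosome 2 from 62595798 to 62646255), which binds long double-stranded RNA, was at 31.8, 29.5 and 20.4 CPM in Veh and 29.3, 32.3 and 23.4 CPM in GSK. The highest and the lowest sample differed by more within Veh than the group means did. The log2 fold change was 0.06 (standard error 0.19, 95% interval -0.41 to 0.52, adjusted p = 0.84). Dhx58 (LGP2, chromosome 11 from 100694884 to 100704271), a helicase without signalling domains that tunes RIG-I and MDA5, was at 52.1, 55.9 and 35.7 CPM in Veh and 43.6, 51.5 and 29.9 CPM in GSK. Replicate 3 was the lowest sample of each group here as well. Its log2 fold change of -0.20 had the widest interval of the members (-0.94 to 0.54, adjusted p = 0.64), and exons of the antisense gene Dhx58os cover 4.31% of its exon length. With the replicate number as a block, Dhx58 was called lower, as given below under how the results depend on the processing.

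Mavs (chromosome 2 from 131234063 to 131248025), the mitochondrial adaptor of RIG-I and MDA5, was at 49.6, 48.8 and 46.3 CPM in Veh and 46.4, 46.2 and 42.9 CPM in GSK. It varied little in either group, and its interval of -0.23 to 0.04 around a log2 fold change of -0.10 (adjusted p = 0.25) was the narrowest of the 9 tested.

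Promoter sequences are shown for 4 members. Replicate 3 was the lowest sample of both groups in Ddx58, Ifih1 and Eif2ak2 but not in Cgas. Those of Mavs and Adar, where replicate 3 was also lowest, and of Tlr3 are not printed. RefSeq windows of GRCm38.p6 were matched by symbol for 7 of the 10 members, and Dhx58, Zbp1 and Tlr7 had no entry. Each line gives the 250 bases before the start on the gene's own strand, 5′ to 3′, and capitals mark AANNGAAA, the core bound by interferon regulatory factors, searched on both strands. The windows are chr4:40239826-40240075 for Ddx58, chr2:62646256-62646505 for Ifih1, chr17:78882573-78882822 for Eif2ak2 and chr9:78443238-78443487 for Cgas, all on the minus strand.
Ddx58: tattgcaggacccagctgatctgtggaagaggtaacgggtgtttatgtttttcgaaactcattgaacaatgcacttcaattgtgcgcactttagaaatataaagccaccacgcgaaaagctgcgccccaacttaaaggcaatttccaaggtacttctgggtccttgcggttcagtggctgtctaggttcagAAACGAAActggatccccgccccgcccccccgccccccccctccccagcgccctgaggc
Ifih1: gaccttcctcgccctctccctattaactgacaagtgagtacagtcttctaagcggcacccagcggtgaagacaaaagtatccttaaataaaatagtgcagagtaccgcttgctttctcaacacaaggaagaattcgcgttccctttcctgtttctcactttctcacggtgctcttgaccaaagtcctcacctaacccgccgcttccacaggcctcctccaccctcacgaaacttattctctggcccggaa
Eif2ak2: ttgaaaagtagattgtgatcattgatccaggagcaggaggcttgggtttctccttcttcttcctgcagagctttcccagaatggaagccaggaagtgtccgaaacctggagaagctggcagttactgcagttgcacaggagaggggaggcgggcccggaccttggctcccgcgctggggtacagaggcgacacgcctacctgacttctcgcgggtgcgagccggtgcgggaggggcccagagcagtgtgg
Cgas: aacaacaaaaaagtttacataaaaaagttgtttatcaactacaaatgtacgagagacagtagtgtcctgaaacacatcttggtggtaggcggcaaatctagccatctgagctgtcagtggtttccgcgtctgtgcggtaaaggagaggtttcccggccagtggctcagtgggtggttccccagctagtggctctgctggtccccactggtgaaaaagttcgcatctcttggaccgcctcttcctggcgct

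AANNGAAA occurred in 2 of the 7 members with a window, which had 9 windows between them, and in 21.3% of all 32851 windows. The 2 were Ddx58, as AAACGAAA starting 59 bases before the start, and Tlr3, where 178 of the 250 bases lie in its own exons. The core of the interferon-stimulated response element, GAAA followed after any 2 bases by GAAA, which holds AANNGAAA within it, occurred in 0 of the 7 members and in 2.98% of all windows. Among the interferon-stimulated genes listed here, 15 had a window and 6 of these held the response element core. AANNGAAA was searched after the result for the response element core was seen. A match is a description of the letters only, and these windows are short.

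PKR, encoded by Eif2ak2, halts translation by phosphorylating eIF2α when it binds double-stranded RNA. Eif2ak2 (chromosome 17 from 78852564 to 78882573) was at 130, 131 and 108 CPM in Veh and 150, 152 and 123 CPM in GSK. GSK replicates 1 and 2 lay above every Veh sample, while GSK replicate 3 lay below the Veh samples 1 and 2. The log2 fold change was 0.20 (standard error 0.10, 95% interval -0.04 to 0.45, adjusted p = 0.18). It was called without GSK replicate 3 (adjusted p = 0.014) and without both samples of replicate 3 (adjusted p = 0.016, log2 fold change 0.21). Exons of other genes cover 4.32% of its exon length.

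ADAR1 converts adenosine to inosine in double-stranded RNA, by which the cell's own RNA is kept from MDA5, PKR and ZBP1. Adar (chromosome 3 from 89715022 to 89753446) was at 185, 185 and 158 CPM in Veh and 190, 198 and 167 CPM in GSK. The groups overlapped, and the log2 fold change was 0.07 (standard error 0.075, 95% interval -0.09 to 0.24, adjusted p = 0.49). Exons of Chrnb2, on the opposite strand, cover 16.8% of the exon length of Adar, and the strand setting of the counting is not given in the sources used here.

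cGAS makes the messenger cGAMP when it binds double-stranded DNA, and cGAMP opens signalling through STING. Cgas (chromosome 9 from 78430526 to 78443237) was at 24.9, 26.7 and 23.6 CPM in Veh and 26.9, 27.6 and 30.3 CPM in GSK. Every GSK sample lay above every Veh sample, narrowly, and unlike the other tested members its replicate 3 was the highest in GSK. The estimated log2 fold change was 0.18 (standard error 0.078, 95% interval 0.01 to 0.34, adjusted p = 0.10), so Cgas was not called. Exons of the pseudogene Gm8093 cover 4.87% of its exon length. Of the 9 tested members 3 had all GSK samples above all Veh samples, as did 23.7% of all genes tested, and 0 had all GSK samples below, as did 23.0%.

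Per kilobase of exon (the union of a gene's GENCODE exons), Zbp1 had the highest level of the 10 members in both groups, at 39.3 ± 7.26 CPM per kb (SD, n = 3) in Veh and 61.6 ± 7.54 CPM per kb in GSK. In Veh it was followed by Eif2ak2 (24 ± 2.50), Adar (21.7 ± 1.87), Ddx58 (18.7 ± 1.75), Dhx58 (14.6 ± 3.29) and Mavs (14.4 ± 0.517), all in CPM per kb, and neighbours in this run overlapped. Cgas (6.07 ± 0.373), Ifih1 (3.33 ± 0.733), Tlr7 (1.84 ± 0.615) and Tlr3 (0.034 ± 0.022 CPM per kb) came after, with no overlap between neighbours. In GSK the order differed in that Mavs stood above Dhx58 and Tlr7 (3.79 ± 0.485) above Ifih1 (3.47 ± 0.553 CPM per kb), pairs whose samples overlapped there.

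The members did not vary independently. In 8 of the 9 tested members replicate 3 was the lowest sample of both groups, as in 13.9% of all genes tested, and the exception was Cgas. Averaged over the 9 members, Veh replicate 3 deviated from its group mean by -0.263 and GSK replicate 3 by -0.188 in log2 CPM. The size differed between members, from -0.06 in Mavs to -0.63 in Tlr7 for Veh replicate 3. Without both samples of replicate 3, the members called higher were Eif2ak2, Zbp1 and Tlr7, in a fit that called 2178 of all genes. Without both samples of replicate 1, or both of replicate 2, 0 members were called higher, in fits that called 1373 and 3798. What set replicate 3 apart was not tested.

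Zbp1, Tlr7, Eif2ak2 and Adar were also set against the helicases within each sample, a ratio chosen after the values were seen. The log2 ratio of Zbp1 to the geometric mean of Ifih1, Ddx58 and Dhx58 was 1.33, 1.32 and 1.31 in the Veh samples and 2.01, 1.90 and 2.13 in the GSK samples. Zbp1 thus kept nearly the same proportion to the helicases in all Veh samples, and a higher proportion in every GSK sample. The means differed by 0.693 (SD 0.012 in Veh and 0.114 in GSK, exact permutation p = 0.1, two-sided, the smallest that 3 samples against 3 allow). For Tlr7 the same ratio was -2.76, -2.78 and -3.25 in Veh and -1.78, -1.92 and -1.70 in GSK. Replicate 3 still lay apart in Veh. For Eif2ak2 it was 1.08, 1.11 and 1.30 in Veh and 1.43, 1.25 and 1.52 in GSK, and the groups overlapped. For Adar it was 1.59, 1.6 and 1.84 in Veh and 1.76, 1.63 and 1.96 in GSK, and the groups overlapped there as well. In both of these genes the ratio was highest in replicate 3 of each group.

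**Figure D3:**
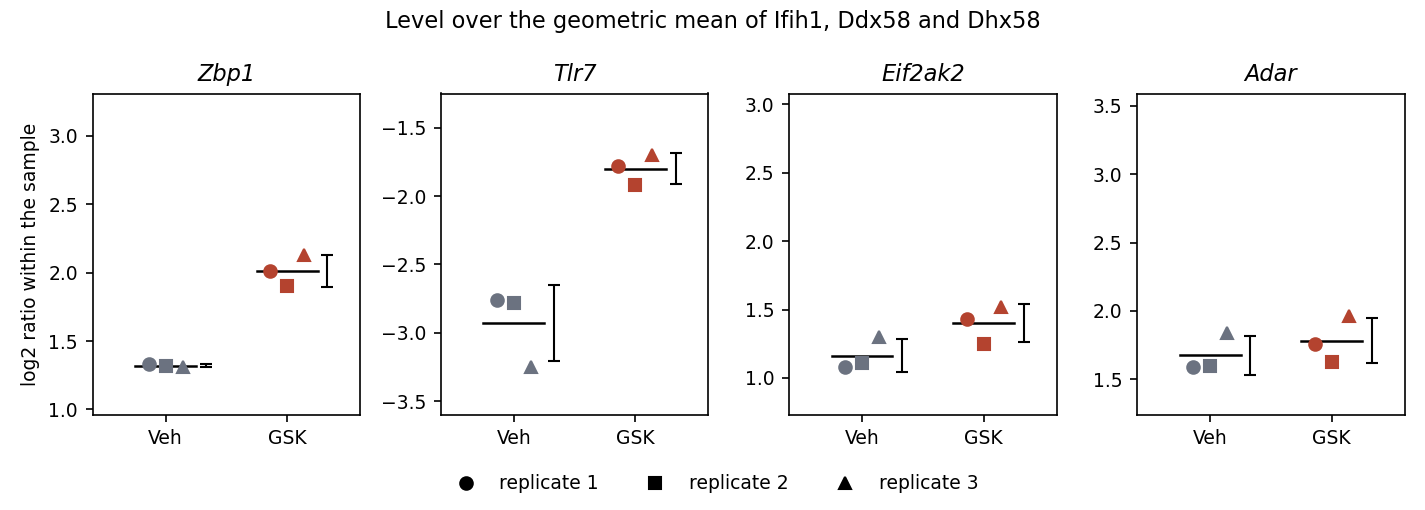
Log2 ratio, within each sample, of Zbp1, Tlr7, Eif2ak2 and Adar to the geometric mean of Ifih1, Ddx58 and Dhx58 (y axes, all of the same span), with a line for the mean of each group, an error bar for its SD and a symbol for each replicate number. For Zbp1 the Veh samples lie between 1.31 and 1.33 and the GSK samples between 1.90 and 2.13, and for Adar the groups overlap.

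Over the 6 samples, the genes whose pattern was most like the mean standardised pattern of the 9 tested members were Gbp9, Rtp4, Irf7, Herc6, Slfn5, Gm40892, Stat2, Tusc1, Nuak2 and Trim12c, with Pearson's r from 0.977 to 0.998. None of these 10 was called between GSK and Veh (adjusted p from 0.31 to 0.77). They were picked for a pattern with a low replicate 3 in both groups, so the lack of calls partly follows from that choice. For Tlr7 the nearest genes were Amigo3, Zbp1 and N4bp1 (r = 0.997, 0.993 and 0.992), and for Zbp1 they were Spin2c, N4bp1 and Ctif (r = 0.997, 0.994 and 0.993). Zbp1 and Tlr7 thus had patterns close to each other. For Ddx58 they were Ifi206, Ecm1 and Ifi208, for Eif2ak2 Oasl2, Man2a2 and Gbp6, and for Cgas Dph2, Nckap1 and Ak6. These values describe 6 points that share the group difference and the low replicate 3.

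Of 22 genes of RIG-I-like receptor signalling, all tested, 4 rose and 5 fell, near the 16.6% higher and 15.5% lower of all genes tested, with a median log2 fold change of -0.0037. Tnfaip3, which encodes the ubiquitin-editing inhibitor A20, fell from 50.7 ± 4.65 to 30.3 ± 2.77 CPM (log2 fold change -0.74, adjusted p = 5e-05). Rnf125, a ubiquitin ligase that marks RIG-I for degradation, fell from 255 ± 11 to 191 ± 16.4 CPM (-0.42, adjusted p = 3.1e-04), and Tbkbp1, an adaptor of the kinase TBK1, from 13.3 ± 2.04 to 7.22 ± 1.43 CPM (-0.88, adjusted p = 0.0012). Zc3hav1, the antiviral protein ZAP that binds CpG-rich RNA, fell by less (-0.27, adjusted p = 0.0016). Zcchc3, a co-sensor for RIG-I, MDA5 and cGAS, rose from 4.73 ± 0.343 to 7.76 ± 0.393 CPM (0.71, adjusted p = 0.0023).

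Of 16 genes around cGAS and STING, all tested, 3 rose and 2 fell (median log2 fold change -0.047), again near the 16.6% and 15.5% of all genes tested. Enpp1, which breaks down cGAMP outside the cell, fell from 4.33 ± 0.658 to 2.41 ± 0.551 CPM (log2 fold change -0.84, adjusted p = 0.012). Lrrc8a, a subunit of the volume-regulated channels that pass cGAMP, fell from 43.3 ± 4.27 to 29.9 ± 2.04 CPM (-0.54, adjusted p = 4.1e-04), and Slc19a1, a folate carrier that also imports cyclic dinucleotides, rose (0.30, adjusted p = 0.014). The nucleases moved little, with 0.23 for Rnaseh2b, a subunit that removes RNA from DNA hybrids (adjusted p = 0.015), and 0.24 for Trex1, which degrades cytosolic DNA (adjusted p = 0.044). Sting1, named after its value was seen because it encodes STING itself, averaged 199 ± 5.58 CPM in Veh and 191 ± 5.87 CPM in GSK (adjusted p = 0.36).

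The oligoadenylate synthetase family also answers double-stranded RNA. Oasl2 averaged 19.8 ± 6.25 CPM in Veh and 29.5 ± 9.46 CPM in GSK (adjusted p = 0.32). Oas3 averaged 238 ± 34.6 CPM in Veh and 226 ± 41.9 CPM in GSK (adjusted p = 0.80), and in both genes replicate 3 was the lowest sample of both groups. Reads can be shared between near copies in this family, so these counts are uncertain. Among 13 tested genes around PKR, 2 rose and 2 fell, as did 16.6% and 15.5% of all genes tested. Eif2s1, which encodes its substrate eIF2α, rose from 180 ± 6.55 to 223 ± 15.4 CPM (0.31, adjusted p = 9.1e-04), and Eif2s3x, the gamma subunit, rose by 0.16 (adjusted p = 0.017). Ddit3 (CHOP), a transcript raised when eIF2α is phosphorylated, fell from 18.0 ± 1.31 to 12.3 ± 1.38 CPM (-0.55, adjusted p = 0.0019), and Ppp1r15a (GADD34), a regulator of eIF2α dephosphorylation, by -0.30 (adjusted p = 0.027). Atf4, whose protein acts in the same response, was at 385 ± 23.7 and 395 ± 19.3 CPM (adjusted p = 0.61).

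Of 17 genes of the endosomal TLR pathway, 16 were in the table and 14 were tested, of which 4 rose and 3 fell (median log2 fold change 0.0042), where 16.6% and 15.5% of all genes tested did. Pld4, an exonuclease that degrades nucleic acids in endolysosomes, rose from 20.1 ± 0.594 to 71.3 ± 4.15 CPM (1.82, adjusted p = 3.4e-09). It was known from earlier results of these data to rise when the list was written. Irak2, a kinase of the MyD88 signalling complex, fell from 21.1 ± 1.96 to 10.4 ± 1.68 CPM (-1.03, adjusted p = 7e-05). The chaperones that fold TLRs rose together, Hsp90b1 (gp96) by 0.21 (adjusted p = 0.0049) and its partner Cnpy3 by 0.33 (adjusted p = 0.0057). Rnaset2a, a lysosomal RNase that can release RNA fragments sensed by TLRs, fell (-0.31, adjusted p = 0.012), but it has the near copy Rnaset2b, so its counts are uncertain. Tlr9 had at most 5 counts and Tlr13 at most 1 count in a sample, and neither was tested.

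Of 7 partners of ZBP1 in cell death, all tested, 2 rose and 3 fell, beside 16.6% and 15.5% of all genes tested, with a median log2 fold change of 0.083. Mlkl, the effector of necroptosis, rose from 48.4 ± 3.46 to 60.1 ± 4.15 CPM (log2 fold change 0.31, adjusted p = 0.0043), and Fadd, the adaptor of caspase-8, rose by 0.28 (adjusted p = 0.034). Ripk3, the kinase that ZBP1 engages, fell from 82.4 ± 3.06 to 72.2 ± 5.81 CPM (-0.19, adjusted p = 0.032). Casp6 (-0.41, adjusted p = 0.0057) and Cflar, which encodes the caspase-8 regulator cFLIP (-0.16, adjusted p = 0.039), also fell. Each of these log2 fold changes was smaller in size than that of Zbp1.

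RNA interference takes up double-stranded RNA as well. Of 11 genes of this machinery, all tested, 2 rose and 4 fell (median log2 fold change -0.12), beside 16.6% and 15.5% of all genes tested. Ago2, the slicing Argonaute, fell from 213 ± 1.35 to 183 ± 8.56 CPM (-0.22, adjusted p = 0.0028), Ago1 by -0.16 (adjusted p = 0.025) and Tnrc6b, a silencing partner of the Argonautes, by -0.29 (adjusted p = 0.036). The fourth to fall was Ago4, named after its value was seen, with 15, 21 and 11 counts in Veh and 10, 4 and 1 in GSK (-1.67, adjusted p = 0.042). Mov10, an RNA helicase that also restricts retroelements, rose from 103 ± 10 to 169 ± 7.29 CPM (0.71, adjusted p = 1.8e-05), and Drosha, which cuts primary microRNAs, rose by 0.33 (adjusted p = 0.0052).

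**Figure D4:**
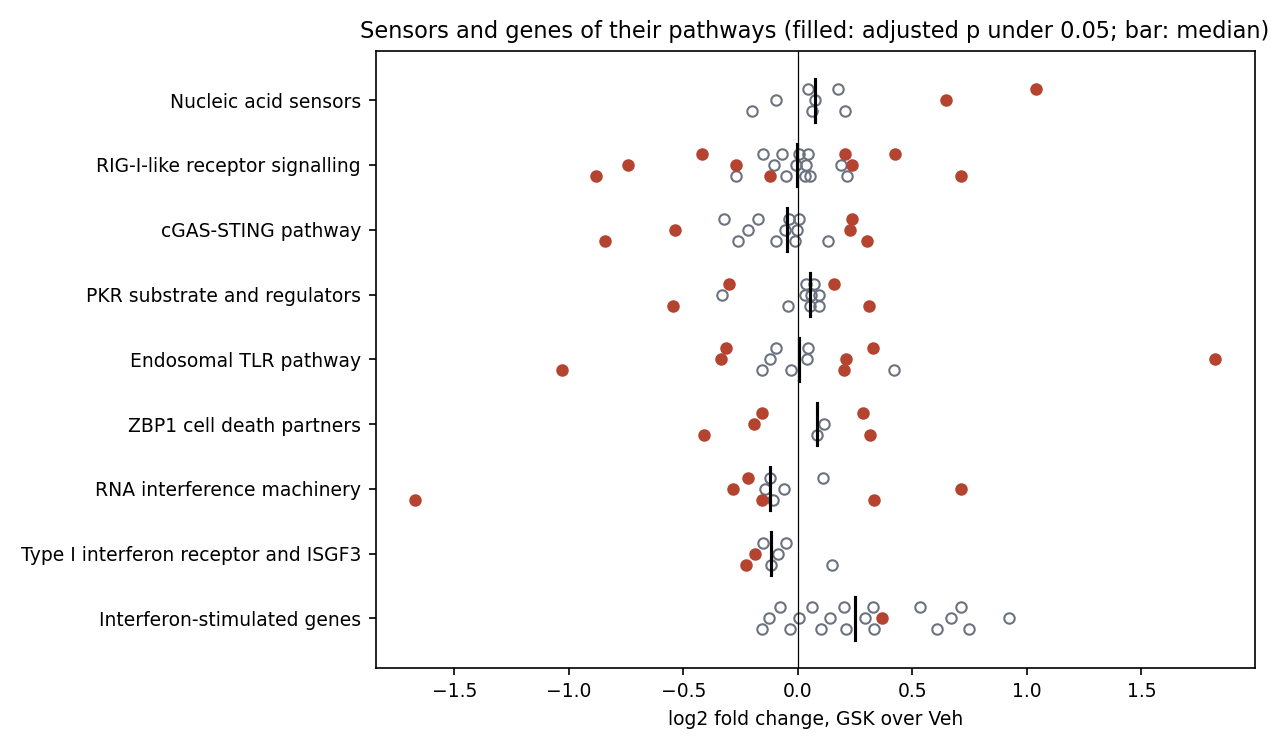
Log2 fold change of GSK over Veh (x axis) for every tested gene of the sensors and of 8 pathway lists (rows), filled where the adjusted p was under 0.05, with a bar at each list's median. Pld4 lies farthest right at 1.82, and of the interferon-stimulated genes 1 of 20 is filled although their median is 0.25.

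The interferons that sensors can induce were barely detected. Of 11 type I and III interferon genes, 4 were in the table, and all were too low for the test. Ifnb1 had 1 count in GSK replicate 2 and 0 in the other samples. Ifnab had 0, 2 and 2 counts in Veh and 4, 4 and 2 counts in GSK, Ifna4 had 0 counts in Veh and 2, 0 and 2 in GSK, and Ifna2 had 1 count in a single sample of each group. Summed over the 4 genes, the level was 0 to 0.161 CPM in the Veh samples and 0.209 to 0.367 CPM in the GSK samples. A count of 0 allows up to 3 counts, so these values lie near the floor and the difference was not tested. Of 7 genes of the type I interferon receptor and its signalling, 0 rose and 2 fell, beside 16.6% and 15.5% of all genes tested. Those that fell were Ifnar1, a chain of the receptor (211 ± 7.44 to 180 ± 15.7 CPM, log2 fold change -0.23, adjusted p = 0.011), and the kinase Tyk2 (-0.19, adjusted p = 0.0088).

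Interferon-stimulated genes are a common readout of these sensors. Of 22 listed, 20 were tested, of which 1 was called higher and 0 lower, where 16.6% and 15.5% of all genes tested were. More were called with the replicate number as a block, as given below under how the results depend on the processing. Their median log2 fold change was 0.25, beside 0.07 for the sensors. Ifi35 rose from 55.9 ± 7.34 to 71.9 ± 3.86 CPM (0.37, adjusted p = 0.0083). Trim30a averaged 197 ± 32.2 CPM in Veh and 248 ± 47.9 CPM in GSK (adjusted p = 0.30), and Parp14 286 ± 33.7 and 287 ± 36.1 CPM (adjusted p = 0.98). Log2 fold changes in the list ran from -0.16 in Dtx3l (adjusted p = 0.39) to 0.92 in Ifit3 (adjusted p = 0.22), the latter named after its value was seen. In 3 of the 20 every GSK sample lay above every Veh sample, as in 23.7% of all genes tested, and in 0 below, as in 23.0%. In 18 of the 20, replicate 3 was the lowest sample of both groups, as in 13.9% of all genes tested. Without both of its samples 8 of the 20 were called higher and 0 lower, in a fit that called 2178 of all genes. Without both samples of replicate 1, 0 were called higher, and without both of replicate 2, 2 were, in fits that called 1373 and 3798. All 10 sensors carry the GO term defense response to virus in the deposited table, a term looked up after the values were seen. Of the 140 tested genes with that term, 18.6% were called higher and 15.7% lower, close to the shares of all genes tested, and their median log2 fold change was 0.051.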

How the data were processed

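Poly(A)+ RNA of 3 Veh and 3 GSK cultures was sequenced from stranded libraries. The authors removed adapters and low-quality bases with Trimmomatic, mapped reads to GRCm38 with hisat2 (version 2.1.0) and deposited gene counts from HTSeq-count (version 0.11.2), without normalization. Their annotation release and strand setting are not given in the sources used here.

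GSK was tested against Veh on these counts by the robust quasi-likelihood method of edgeR (version 4.0.16, in R version 4.3.3). Library totals were scaled by TMM, genes of low counts were removed by filterByExpr, and p-values of the remaining 11698 genes were adjusted by Benjamini-Hochberg. The authors used DESeq2 at a fold change over 1.5, and DESeq2 (version 1.42.0) was run here as an alternative. Standard errors were derived from the test statistic. Samples held 18288447 to 19846720 counts, at which depth Tlr3 had too few for the test, and intervals of counts cover counting error only. Replicate samples differed by more than sampling noise (within groups, chi-square divided by its degrees of freedom was 4.05 to 9.31). Coordinates and exon lengths are from GENCODE M21 and promoters from RefSeq, both on GRCm38.

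The members and pathway lists were chosen with earlier results of these data known. All members are named, and of each list up to 5 genes, first those called in order of p, then those with the most counts, except where a gene is said to be named after its value was seen, and Tlr9, Tlr13 and the markers, named for their levels.

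Alternatives were DESeq2, RLE size factors, no filter, a mean CPM of at least 1, the replicate number as a block, no robust moderation, and leaving out each sample or both samples of a replicate number. Some genes of the lists are not reported here.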

Additional observations from a re-analysis of the deposited data

How the results depend on the processing

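Of the members, Tlr7 was called under 13 of 15 alternatives and Zbp1 under 7, each with the same direction under all 15. Eif2ak2 was called under 3 and Dhx58 under 1. Ifih1, Ddx58, Mavs, Adar and Cgas were called under 0, with adjusted p-values from 0.078 to 0.98. With DESeq2, RLE size factors, a mean CPM of at least 1 or no robust moderation, Zbp1 and Tlr7 were called higher and 0 members lower. Without a filter on low counts they were Tlr3 and Tlr7. With samples left out, the number of members called higher ranged from 0 to 3, with fewer samples in the fit, and the number of all genes called from 1373 to 4103, beside 3760 with all samples. The log2 fold change of Ifih1 then ranged from -0.11 to 0.19 and that of Ddx58 from -0.077 to 0.16 (-0.0497 without both samples of replicate 2), so their signs are not settled. The members' median ranged from 0.0038 to 0.17. The labels give both groups replicate numbers 1 to 3, and the correlation across genes between the Veh and the GSK sample of a number, each as its deviation from the mean of its group, was -0.052, -0.081 and 0.16. Not every pair was over 0.1, so the numbers were not taken to pair the samples. Over the 9 tested members alone, which share the low replicate 3, it was 0.61, 0.5 and 0.59, so whether the numbers mark shared mice is not known. With the number as a replicate block, 3 members were called higher (Eif2ak2, Zbp1 and Tlr7), 1 lower (Dhx58, log2 fold change -0.21, adjusted p = 0.039), and 3303 of all genes. In that fit 14.6% of all genes were called higher and 13.7% lower. In it the adjusted p was 8.9e-05 for Zbp1, 8.7e-04 for Tlr7 and 0.012 for Eif2ak2, and of 20 interferon-stimulated genes 10 were called higher and 1 lower. Without both samples of replicate 3, 2178 of all genes were called. Of the counts of calls in the pathway lists, 230 stayed within 1.5 times and 70 moved by more. The cause of these differences was not tested. Depth limited Tlr3 and the interferon genes.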

Other observations

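With the replicate number as a term, 25 of the genes tested differed between replicate numbers at an adjusted p under 0.05 (edgeR), and Dhx58 was the member among them (adjusted p = 0.019). The next lowest value among the members was that of Zbp1 (adjusted p = 0.081).

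Of the NK cell markers, which CD8 T cells share in part, Eomes rose from 204 ± 9.38 to 433 ± 17.7 CPM and Klre1 from 8.04 ± 0.322 to 11.4 ± 1.58 CPM (adjusted p = 1.5e-08 and 0.0093, edgeR), while Ncr1 had 1 count in all samples together.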
